A study of Mus musculus with 30 samples.

Results

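Glycolysis splits glucose into pyruvate in the cytosol and yields ATP without oxygen, and fast muscle fibers draw on it for short bursts of force. Glycogen and blood glucose both enter as glucose 6-phosphate, the upper enzymes prime the sugar and split it into triose phosphates, the lower enzymes harvest ATP and NADH, and lactate dehydrogenase recycles the NADH by turning pyruvate into lactate. Muscle makes its own isoforms at several steps, and fibers that express the myosin heavy chain Myh4 (type IIb) are the most glycolytic of the mouse fiber types. The members described here are the 10 enzymes of this pathway that muscle expresses in quantity: Gpi1, Pfkm, Aldoa, Tpi1, Gapdh, Pgk1, Pgam2, Eno3, Pkm and Ldha. They were chosen by gene symbol, 10 of the 56951 symbols in the deposited tables, and all 10 were among the 12030 genes that passed the filter on low values (mean over 20 reads and mean FPKM over 0.5). Where a symbol had several rows the longest with a mean over 20 reads was used. Aldoa alone had a second row, with a mean of 11.2 reads against 319000 for the one used, and that second row was left out.

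The mice were male wild-type C57BL/6J animals, 14 weeks old at the start, each caged alone with a running wheel. The LD group (14 mice) stayed on a fixed cycle of 12 h light and 12 h dark for 64 weeks, and the ADV group (16 mice) had the cycle advanced by 8 h every 4 days for the same time. Gastrocnemius muscle, with the plantaris attached, gave 1 poly(A) RNA library per mouse. Collection spread over several hours of the day, and each animal's own hour was not used here. In whole muscle, fewer fibers of a type and less RNA per fiber cannot be told apart.

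Between 18875468.5 and 28512674 read pairs per library were counted on exons. Skeletal muscle markers were high in every library: the 8 markers summed to 50758 to 70465 FPKM (fragments per kilobase of exon, scaled to library size), so the labelled tissue matched its markers. One library stood apart. ADV 34 had 92.7% of its reads on exons against 90.9 to 92.0% in the other 29, and its deviation from the group mean fell by 0.17 log2 units per log2 unit of transcript length, against slopes of -0.07 to 0.05 in the other 29. It had the highest value of all 30 libraries for 5 of the 10 members, so values without it are given beside the results it moved.

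The members move together across mice, as described below, and their promoters are shown for that reason. The windows are the 250 bases upstream of the deposited transcript start in GRCm39, 5′ to 3′ on the gene's strand, with 3 kinds of matches in capitals. These are the core of the hypoxia response element, bound by HIF-1 (ACGTG or GCGTG, on either strand), the E box CACGTG, which contains that core, and the MEF2 motif, bound by the myogenic MEF2 factors. Windows of 5 members are given: Aldoa and Pkm because their mRNAs had the highest correlation of any pair of members, Tpi1 and Pgam2 because they formed a close pair whose slopes on Myh4 did not pass the test, and Ldha because it held the most matches.
Aldoa, chr7:126399620-126399869, minus strand: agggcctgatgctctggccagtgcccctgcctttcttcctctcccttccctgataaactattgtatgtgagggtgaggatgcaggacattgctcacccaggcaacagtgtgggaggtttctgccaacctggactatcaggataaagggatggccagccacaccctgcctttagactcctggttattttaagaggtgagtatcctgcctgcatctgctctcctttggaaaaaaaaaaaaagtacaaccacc
Pkm, chr9:59563401-59563650, plus strand: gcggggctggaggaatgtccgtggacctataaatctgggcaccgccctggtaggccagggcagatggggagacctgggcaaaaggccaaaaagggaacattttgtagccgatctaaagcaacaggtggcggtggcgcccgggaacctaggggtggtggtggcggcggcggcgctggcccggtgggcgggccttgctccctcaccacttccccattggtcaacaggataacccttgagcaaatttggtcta
Tpi1, chr6:124791260-124791509, minus strand: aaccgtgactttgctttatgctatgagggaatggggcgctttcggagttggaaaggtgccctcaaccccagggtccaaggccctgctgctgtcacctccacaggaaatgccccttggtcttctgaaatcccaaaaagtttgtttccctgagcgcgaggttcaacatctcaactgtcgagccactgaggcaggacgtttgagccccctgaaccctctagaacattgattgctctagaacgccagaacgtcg
Pgam2, chr11:5753734-5753983, minus strand: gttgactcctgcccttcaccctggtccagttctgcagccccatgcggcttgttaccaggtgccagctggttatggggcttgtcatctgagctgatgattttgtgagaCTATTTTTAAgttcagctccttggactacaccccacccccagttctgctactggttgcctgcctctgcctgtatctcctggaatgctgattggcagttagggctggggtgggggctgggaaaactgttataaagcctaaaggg
Ldha, chr7:46495013-46495262, plus strand: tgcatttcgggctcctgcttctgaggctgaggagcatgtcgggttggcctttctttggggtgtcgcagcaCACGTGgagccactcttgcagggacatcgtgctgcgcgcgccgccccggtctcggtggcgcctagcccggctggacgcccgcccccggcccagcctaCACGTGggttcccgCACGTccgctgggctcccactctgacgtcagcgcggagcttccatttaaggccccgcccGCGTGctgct
The Ldha window, with a GC content of 68.8%, held 6 matches to the hypoxia core when both strands are counted, 4 of which lie in its 2 CACGTG boxes. Pfkm also held a CACGTG, and Gapdh, Pgk1 and Eno3 held 2, 2 and 1 matches to the core, so 5 of 10 members had a match, against 55.2% of 12028 promoters of tested genes. CACGTG was in 2 of 10 members and 8.29% of promoters. Pgam2 held the only MEF2 motif of the 10 members, a motif in 2.05% of promoters, and Pgam2 and Pkm held a TATA box (TATAAA, 6.83% of promoters). The shorter E box CANNTG was in 9 of 10 members (57.6% of promoters) and the GC box GGGCGG in 5 (56.5%). The Aldoa and Tpi1 windows held no HIF core, CACGTG, MEF2, TATA or GC box match. A match is a match of letters and was not tested as a binding site.

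The 10 mRNAs together took 3.66 ± 0.21% of the exon reads in the LD group (mean ± SD, n = 14) and 3.72 ± 0.34% in the ADV group (n = 16). Per length, Aldoa, the aldolase that splits fructose 1,6-bisphosphate, was far above the others, with a mean of 9021 FPKM over 30 mice, the ninth highest level of all genes tested. Gapdh followed at 3543 FPKM, then Eno3 at 2674, Pfkm at 1339, Pgam2 at 1323, Pkm at 1230, Ldha at 1162, Tpi1 at 903, Gpi1 at 351 and Pgk1 at 208. The lowest of them, Pgk1, still ranked 215 of 12030. The order spans the pathway without following it: the step catalysed by phosphofructokinase, the main point of control, was at a level close to those of pyruvate kinase and lactate dehydrogenase.

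Within each library the level of each member was compared with the next one down (two-sided sign-flip permutation test of the log2 ratio, 9 pairs, adjusted over them). Of the 9 neighbouring pairs 8 differed in FPKM. The order came from the same values, and the test only asks whether a ratio keeps its direction over mice. A bias of transcript length, GC content or mapping that all libraries share cannot be told apart from a difference of abundance. Aldoa exceeded Gapdh by 1.35 ± 0.09 log2 units (SD, n = 30) in 30 of 30 mice, adjusted p = 1.5e-05 by permutation, and Tpi1 exceeded Gpi1 by 1.36 ± 0.20 in 30 of 30. Pfkm and Pgam2 did not differ beyond their spread (0.02 ± 0.19 log2 units, Pfkm higher in 18 of 30 mice, adjusted p = 0.544 by permutation). Pgam2 lay above Pkm by 0.10 ± 0.16 in 21 of 30 mice (adjusted p = 0.00196 by permutation), and within the LD group alone this pair did not differ (0.04 log2 units, adjusted p = 0.357 by permutation). Pkm exceeded Ldha by 0.08 ± 0.08 in 26 of 30 mice.

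The levels of Gapdh and Pgk1 may be undercounted. Reads that map to several places were removed before counting, and 85.7% of the 101-base windows of the Gapdh transcript recur exactly in annotated pseudogenes (81 of them), as do 67.0% of the Pgk1 windows (3 pseudogenes). The corresponding share was 6.52% for Pkm, 4.74% for Gpi1, 1.34% for Ldha, 0.730% for Tpi1 and 0 for Pfkm, Aldoa, Pgam2 and Eno3. The place of Gapdh and Pgk1 in the order is therefore uncertain. Gm49759, a gene model on the same strand inside Pkm, was counted at 7.20% of the Pkm reads, and reads of the pair may be shared. The small differences of Pkm from its neighbours Pgam2 and Ldha are therefore uncertain as well.

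**Figure D1:**
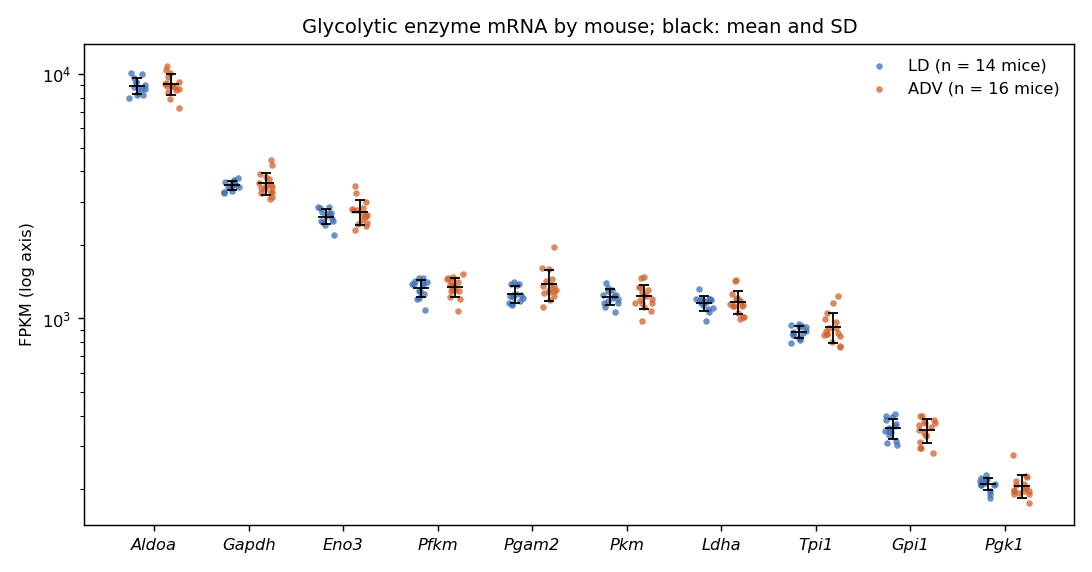
FPKM of the 10 glycolytic enzymes in each mouse, on a log axis, in order of mean level, with LD mice in blue (n = 14) and ADV mice in orange (n = 16) and the mean and SD in black. The groups overlap for every enzyme, from Aldoa at 7283 to 10809 FPKM down to Pgk1 at 176 to 276 FPKM.

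The first comparison asked whether 64 weeks of repeated phase advances changed the mRNA of these enzymes. None of the 10 members passed an FDR of 0.05 between LD and ADV mice (edgeR quasi-likelihood test, Benjamini-Hochberg adjustment over 12030 genes), while 10.8% of all genes tested did, 5.61% higher and 5.20% lower in the ADV group. Their log2 fold changes ran from -0.04 to 0.12, with a median of 0.00 beside 0.00 for all genes, and DESeq2 called 0 of them. With a fold change over 1.3 also required, 2.09% of all genes and 0 members were called. The 95% confidence intervals of the 10 members lay between 0.889-fold and 1.18-fold, so changes beyond those limits were outside every member's interval, which is not the same as no change. One member, Pgam2, had an unadjusted p under 0.05.

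In the upper part of the pathway, Gpi1, which turns glucose 6-phosphate into fructose 6-phosphate, ranged from 303 FPKM in LD 31 through a median of 351 to 406 in LD 33. In the ADV group it ranged from 282 in ADV 31 through 354 to 400 in ADV 25. The groups shared nearly their whole range, and the log2 fold change was -0.04 ± 0.06 (SE; FDR = 0.676 in edgeR). Pfkm, the muscle phosphofructokinase, ran from 1085 in LD 32 through 1376 to 1459 in LD 23, and from 1070 in ADV 31 through 1362 to 1526 in ADV 25. Only 6 of 16 ADV mice were above the LD median, and the log2 fold change was 0.00 ± 0.06. Aldoa ran from 7998 in LD 32 through 8828 to 10119 in LD 23 in the LD group. Among ADV mice it ran from 7283 in ADV 31 through 8982 to 10809 in ADV 34. The ADV mice extended past the LD mice at both ends, with a log2 fold change of 0.01 ± 0.06 (FDR = 0.954 in edgeR). Tpi1, which interconverts the triose phosphates, lay between 797 and 952 FPKM among LD mice (median 876) and between 763 and 1231 among ADV mice (median 879). Its highest ADV value was again that of ADV 34, and its log2 fold change was 0.05 ± 0.06, or 0.02 ± 0.05 without that library.

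In the lower part, Gapdh, which makes NADH and is often used as a reference gene, ranged in LD mice between 3275 and 3747 FPKM with a median of 3538, and in ADV mice from 3091 through 3475 to 4432 FPKM. Its medians differed little and its ADV range was wider on both sides, with a log2 fold change of 0.01 ± 0.05. Pgk1, the first ATP-yielding enzyme, ran from 185 through 210 to 230 in LD mice and from 176 through 200 to 276 in ADV mice, with 5 of 16 ADV mice above the LD median (log2 fold change -0.04 ± 0.05). Pgam2, the muscle phosphoglycerate mutase, was the member nearest to a call. It ran from 1132 in LD 32 through 1240 to 1416 in LD 27, and from 1114 in ADV 30 through 1331 to 1957 in ADV 34. Although the ranges overlapped, 13 of 16 ADV mice were above the LD median, and the log2 fold change was 0.12 ± 0.06 (FDR = 0.154 in edgeR). Without ADV 34 it was 0.08 ± 0.04 (FDR = 0.238 in edgeR).

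Eno3, the muscle enolase, ran from 2202 through 2632 to 2861 in LD mice and from 2302 through 2672 to 3474 in ADV mice (log2 fold change 0.05 ± 0.06, or 0.02 ± 0.05 without ADV 34). Pkm, the pyruvate kinase of muscle, ran from 1062 through 1227 to 1392 and from 980 through 1219 to 1473 (log2 fold change -0.01 ± 0.06). Ldha, the lactate dehydrogenase subunit that dominates in fast muscle, ran from 975 through 1179 to 1319 and from 998 through 1138 to 1433 (log2 fold change -0.01 ± 0.05). In all 3 the groups overlapped. Without ADV 34 the estimate was -0.03 for Pkm and for Ldha and -0.01 for Pfkm, Aldoa and Gapdh, and Gpi1 and Pgk1 were at -0.05 each.

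Every member varied more among ADV mice than among LD mice. The coefficient of variation of FPKM had a median over the members of 7.23% in the LD group and 10.9% in the ADV group, and it was larger in the ADV group for 10 of 10 members, beside 65.0% of all genes tested. Without ADV 34, it was larger for 10 of 10 members and 58.5% of genes, with a median of 9.79% for the members in the ADV group. The ratio of ADV to LD value was highest for Gapdh, at 4.16% in LD and 10.5% in ADV mice, and for Tpi1, at 5.67% and 14.2%. That ratio was lowest for Pfkm, at 8.28% and 8.74%. Without ADV 34 and ADV 28 the members' median in the ADV group was 8.71%, and the value was larger in ADV for 10 of 10 members and 56.0% of genes. The members are correlated with each other, so the 10 comparisons are not independent, and the difference in spread was not tested.

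**Figure D2:**
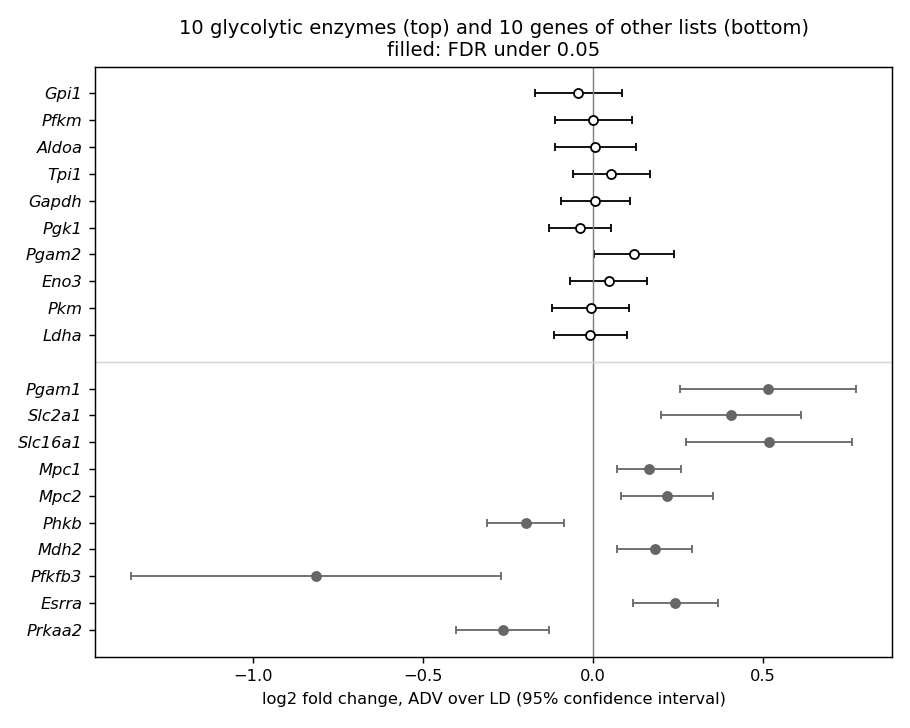
Log2 fold change of ADV over LD mice with its 95% confidence interval from edgeR, for the 10 glycolytic enzymes in pathway order (top, black) and for the 10 genes called in 5 neighbouring gene lists (bottom, grey). Filled points passed an FDR of 0.05: none of the 10 enzymes, whose point estimates lie between -0.04 and 0.12.

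In 5 lists of neighbouring genes 51 were tested, and 10 of them (19.6%) passed, beside 10.8% of all genes. In the lists of other isoforms, glycogen entry and NADH and pyruvate fate, 1 gene each passed, a share of 12, 7 and 11 tested genes that is near that of all genes. Of the 24 other isoforms of glycolytic enzymes 12 were tested, and Pgam1, the phosphoglycerate mutase of most non-muscle tissues, was the 1 called. Pgam1 ran from 1.48 FPKM in LD 33 through 2.65 to 3.33 in LD 21, and from 2.62 in ADV 30 through 3.30 to 6.36 in ADV 24, and 15 of 16 ADV mice were above the LD median. It was higher in the ADV group by 0.51 ± 0.13 log2 units (FDR = 0.0111 in edgeR), at a level far below that of Pgam2. In this gene 39.2% of the 101-base windows recur in 2 pseudogenes. The most abundant other isoforms, Ldhb (218 FPKM) and Hk2 (83.7 FPKM), the hexokinase of insulin-responsive muscle, had log2 fold changes of 0.30 ± 0.22 and 0.10 ± 0.09 that did not pass.

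Of the genes that move glucose, lactate and pyruvate across membranes, 8 of 9 were tested and 4 were higher in the ADV group. Slc16a1 (MCT1, which carries lactate and pyruvate) rose by 0.52 ± 0.12 log2 units, from a mean of 8.13 to 11.8 FPKM (FDR = 0.00778 in edgeR). Slc2a1 (GLUT1, the basal glucose transporter) rose by 0.40 ± 0.10, from 3.01 to 4.03 FPKM. Both subunits of the mitochondrial pyruvate carrier rose, Mpc1 by 0.16 ± 0.05 and Mpc2 by 0.22 ± 0.07. The abundant members of this list, Bsg (254 FPKM), the chaperone of lactate carriers, and Slc2a4 (189 FPKM), the insulin-regulated glucose transporter GLUT4, had log2 fold changes of 0.03 ± 0.05 and 0.02 ± 0.05. The muscle lactate exporter Slc16a3 (MCT4) was at 0.00 ± 0.11.

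Of 7 genes that feed glycogen into the pathway 1 was called, Phkb, a regulatory subunit of phosphorylase kinase, which fell by 0.20 ± 0.06 log2 units (FDR = 0.0221 in edgeR). The list's median log2 fold change was -0.13, with Pygm, the muscle glycogen phosphorylase (2993 FPKM), at -0.09 ± 0.07 and Pgm1, phosphoglucomutase (441 FPKM), at -0.13 ± 0.07, neither of them called. Of 11 genes for NADH shuttles and pyruvate oxidation 1 was called, Mdh2, the mitochondrial malate dehydrogenase (491 FPKM), which rose by 0.18 ± 0.05. Mdh1, the cytosolic form (274 FPKM), was at 0.17 ± 0.10.

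Of 13 regulators 3 were called. Pfkfb3, which makes the activator of phosphofructokinase fructose 2,6-bisphosphate, fell by 0.81 ± 0.27 log2 units, from 59.9 ± 31 FPKM (SD, n = 14) in LD to 34.4 ± 18.6 (n = 16) in ADV mice (FDR = 0.0452 in edgeR). Prkaa2, a catalytic subunit of the energy sensor AMPK, fell by 0.27 ± 0.07, and Esrra, a nuclear receptor that drives mitochondrial genes, rose by 0.24 ± 0.06. Hif1a, the hypoxia-inducible factor subunit, was at -0.01 ± 0.09, and Mef2c, the most abundant of the list at 113 FPKM, at -0.10 ± 0.08. Clock genes moved with the group: of 4 listed with Bmal1 2 were higher in the ADV group (Bmal1 and Nfil3), and of 6 listed with Dbp 6 were lower. With a score of these genes as covariate no gene of the 12030 passed (1827 had an unadjusted p under 0.05). The score is made of genes that differ between the groups, so it takes part of the group difference with it, and a difference of schedule cannot be told apart from one of clock phase at collection. With it the estimates of the 10 genes called in the 5 lists kept their signs. Those of Slc2a1 (0.41 ± 0.15), Pfkfb3 (-0.78 ± 0.34), Phkb (-0.19 ± 0.08) and Prkaa2 (-0.24 ± 0.09) stayed close to the values without it. Those of Mpc2 (0.11 ± 0.09), Pgam1 (0.31 ± 0.17), Slc16a1 (0.35 ± 0.16), Mpc1 (0.11 ± 0.06), Esrra (0.17 ± 0.09) and Mdh2 (0.14 ± 0.07) were smaller. Of the markers of other cell types, Fabp4 of adipocytes (log2 fold change 0.36), Ncmap of Schwann cells (0.92) and Pecam1 and Emcn of endothelium (0.16 and 0.27) were higher in the ADV group and Pdgfra of fibroblasts (-0.24) was lower, and their part in the calls above was not tested. The 7 adipocyte markers summed to 629 to 1187 FPKM among LD and 696 to 1667 among ADV mice, the 7 endothelial markers to 60 to 83.2 and 71.1 to 94.3, and the Schwann cell markers to 25.0 to 47.5 and 26.8 to 83.9. The adipocyte sum mostly follows Car3 and Fabp4, with means of 757 and 201 FPKM. Cfd, Adipoq, Lep, Plin1 and Retn had means of 68.1, 19.9, 5.24, 4.77 and 4.70. Whether the Car3 and Fabp4 reads came from adipocytes was not tested.

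The muscle isoform held nearly the whole of most enzyme families. Its share of the family's FPKM in LD mice was 99.63 ± 0.06% for Pfkm (with Pfkl and Pfkp), 99.80 ± 0.04% for Pgam2 (with Pgam1) and 98.93 ± 0.09% for Eno3 (with Eno1 and Eno2). Pklr, the partner of Pkm, was listed at 0 in every LD library. Ldha was the exception, with 85.8 ± 7.1% of Ldha and Ldhb together, from 74.3% to 97.4% among the 14 LD mice, and 82.8 ± 4.3% among ADV mice. Between the groups the share of Pgam2 fell by 0.067 percentage points to 99.73 ± 0.08% (two-sided permutation test, p = 0.00418, adjusted p = 0.0251 over 6 families). Pgam2 and Pgam1 are the 2 genes of this ratio, so it shares its Pgam1 values with the call given above. It missed the threshold without LD 33 (adjusted p = 0.0529 by permutation) or without LD 35 (0.0503). The Ldha share was 3.00 percentage points lower in the ADV group, within its spread (p = 0.167 by permutation), and the families of Pfkm, Eno3 and Pkm did not pass.

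The second comparison asked whether the enzymes follow Myh4 from mouse to mouse within the groups. Myh4 itself ran from 9133 FPKM in LD 29 through 10687 to 15582 in LD 23, and from 6813 in ADV 31 through 10454 to 11998 in ADV 22, and was 0.19 ± 0.09 log2 units lower in the ADV group (FDR = 0.160 in edgeR). Each enzyme was fitted on the log2 level of Myh4 with the group as a term, so that the slope is the log2 change of the enzyme per log2 change of Myh4. Of the 10 members 5 rose with Myh4 at an FDR of 0.05, and none fell, while 5.79% of 12029 genes rose and 7.68% fell. The members' median slope was 0.25, beside 0.01 for all genes. All libraries share the depth normalization, and Myh4 alone held 4.41 to 10.1% of exon reads.

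The steepest slopes were those of Gpi1 (0.51 ± 0.09, SE; FDR = 0.000105 in edgeR), Aldoa (0.44 ± 0.08), Pkm (0.43 ± 0.08) and Pfkm (0.38 ± 0.09, FDR = 0.00293 in edgeR). These 4 are the isomerase, the kinase and the aldolase of the upper part, and the kinase that ends the pathway. Ldha was the fifth, at 0.28 ± 0.09 (FDR = 0.0359 in edgeR). It was the one call that rested on single libraries, since it was lost when any of 8 mice was left out: LD 21, LD 23, LD 32, LD 33, LD 35, LD 36, ADV 24 or ADV 31 (FDR 0.0520 to 0.0947 in edgeR). Gapdh and Eno3 had slopes of 0.22 ± 0.09 and 0.23 ± 0.10 that did not pass (FDR = 0.0870 and 0.148 in edgeR). Pgk1, at 0.11 ± 0.09, Tpi1, at 0.08 ± 0.11, and Pgam2, at 0.02 ± 0.12, did not pass either.

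Correlations over the 30 libraries, after subtraction of each group's mean, gave nearly the same order, with Gapdh and Eno3 exchanged. For Aldoa Pearson's r with Myh4 was 0.76 (permutation p = 2.0e-05 within groups) and Spearman's rho 0.74 (permutation p = 1.0e-05, the smallest the permutations can give). Without ADV 31 and ADV 24, which lie farthest from the Myh4 median, r was 0.63. Gpi1 had r = 0.76 and rho = 0.69, Pkm r = 0.75 and rho = 0.73, Pfkm r = 0.66 and rho = 0.56, with permutation p-values from 1.0e-05 to 0.00163. Without the same 2 mice their r was 0.65, 0.62 and 0.50. Ldha had r = 0.53 and rho = 0.56 (permutation p = 0.00330 and 0.00169), and r = 0.37 without the 2 mice. Gapdh had r = 0.47 (0.26 without them) and Eno3 r = 0.41 (0.22 without them). The relations of Aldoa, Gpi1, Pkm, Pfkm, Ldha, Gapdh and Eno3 were all weaker without those mice and rest in part on them. Pgam2 had r = 0.04 and rho = 0.13 (permutation p = 0.822 and 0.502), and Tpi1 r = 0.14 and rho = 0.20 (permutation p = 0.446 and 0.266). Pgk1 had r = 0.24 and rho = 0.08 (permutation p = 0.199 and 0.671). These are 10 relations, and their adjustment over all genes is that of the slopes above.

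**Figure D3:**
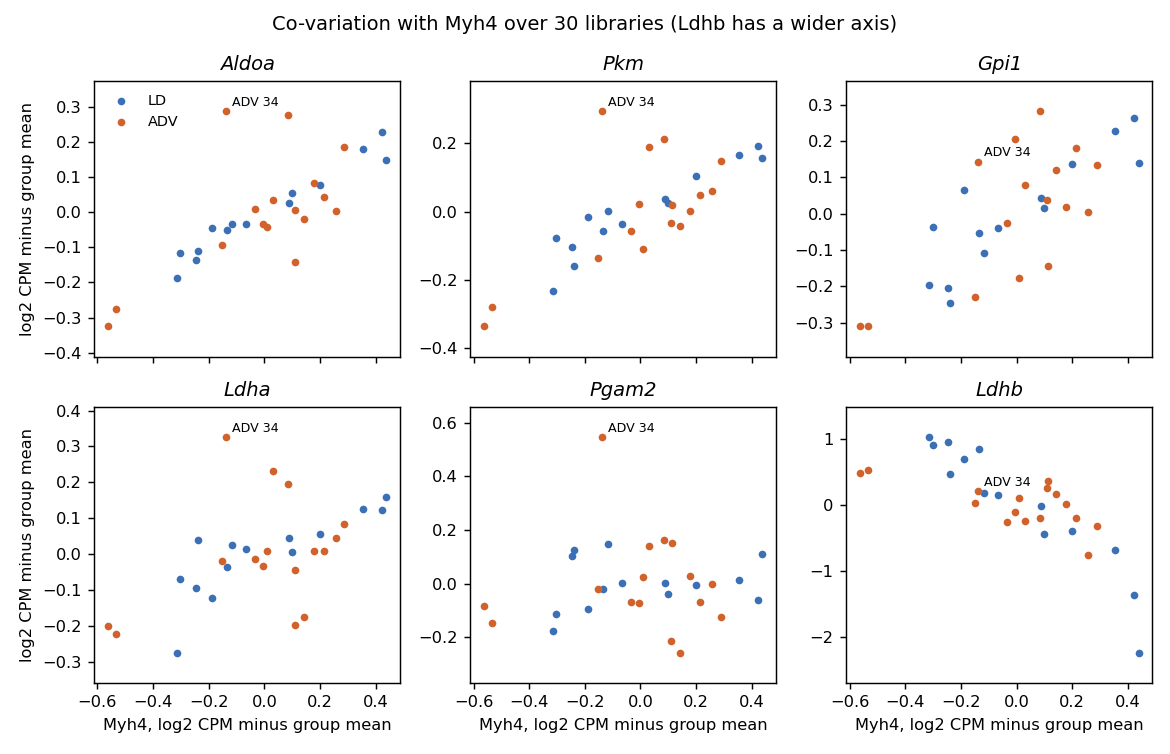
Level of 5 glycolytic enzymes and of Ldhb against Myh4, both as log2 CPM minus the group mean, in 14 LD libraries (blue) and 16 ADV libraries (orange), with ADV 34 marked. Aldoa, Pkm and Gpi1 rise with Myh4 (r = 0.76, 0.75 and 0.76), Pgam2 does not follow it (r = 0.04), and Ldhb, on a wider axis, falls (r = -0.79).

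Within each group the values were as follows. Among the 14 LD libraries Aldoa and Myh4 had r = 0.98 and Pkm and Myh4 r = 0.94 (permutation p = 1.0e-05 for each), while among the 16 ADV libraries r was 0.62 and 0.65 (permutation p = 0.0106 and 0.00706). Spearman's rho in the ADV libraries was 0.46 for Aldoa, 0.50 for Pkm, 0.46 for Gpi1 and 0.29 for Pfkm (permutation p = 0.0749, 0.0516, 0.0775 and 0.271). Without ADV 31 and ADV 24 r in the ADV libraries was 0.05 for Aldoa, 0.08 for Pkm, 0.29 for Gpi1 and 0.04 for Pfkm, so the relation within that group rests on those mice. Among LD libraries without the 2 farthest from their median r was still 0.97 for Aldoa and 0.91 for Pkm. With LD libraries alone 6 members rose with Myh4 (the 5 above and Gapdh) beside 6.45% of genes, and with ADV libraries alone 0 members did, beside 0.0166% of genes. The slopes themselves were 0.45 and 0.41 for Aldoa and 0.51 and 0.50 for Gpi1, in LD and ADV libraries in turn. The difference of slope between the groups was tested directly, and no member passed: the 10 differences ran from -0.13 to 0.13 with standard errors of 0.16 to 0.24 (lowest FDR 0.949 in edgeR, lowest unadjusted p 0.463), beside 0.00831% of genes called.

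Transcript length moved with some of the members. The members are short, with a median exon length of 1584 bases beside 2791 for all genes tested, and Pgam2 is the shortest at 835. The level of Pgam2 correlated at r = -0.77 with each library's slope on transcript length (rho = -0.45, permutation p = 0.000530 and 0.0149). ADV 34 carried much of this: without it r was -0.48 and rho -0.34, and without ADV 34 and ADV 25, the 2 farthest on this slope, r was -0.35. That of Tpi1 correlated at r = -0.77 (rho = -0.61), or -0.60 (rho = -0.58) without ADV 34. That of Aldoa was at r = -0.37 (rho = 0.03) and that of Myh4 at 0.16 (rho = 0.28). Aldoa was tied to the TMM factor, at r = -0.68 (rho = -0.66, adjusted p = 0.00156 by permutation over 24 relations), or -0.65 without ADV 34. To the slope on GC content Aldoa had r = 0.53 (rho = 0.36, adjusted p = 0.0147 by permutation). That r was 0.42 without ADV 34 and 0.26 without ADV 34 and ADV 25. Pgam2 and Tpi1 had r = 0.64 and 0.67 to the GC slope (adjusted p = 0.00451 and 0.00384 by permutation), or 0.43 and 0.51 without ADV 34. To the percentage of reads on exons they had r = 0.70 and 0.65, or 0.35 and 0.36 without ADV 34. Myh4 was at r = -0.42 (rho = -0.38, adjusted p = 0.0506 by permutation) to the TMM factor. The levels are log2 CPM already scaled by the TMM factor, so part of a negative relation to it is built in. The part of these measures in the slopes on Myh4 was not tested beyond the alternatives given. With the length trend of each library removed, a correction chosen after the data were seen, 7 members rose with Myh4 beside 11.1% of genes, Gapdh at 0.30 ± 0.06 and Eno3 at 0.31 ± 0.08 having joined. Pgam2 (0.16 ± 0.08), Tpi1 (0.20 ± 0.08) and Pgk1 (0.14 ± 0.08) did not pass with it. Leaving out ADV 34 instead gave the same 7 members beside 7.27% of genes, with r of Aldoa at 0.86 and of Pgam2 at 0.16. With Myh1, the myosin of type IIx fibers, in place of Myh4, 0 members passed, beside 737 of 12029 genes in either direction. The slopes of all 10 members on Myh1 were negative, from -0.22 to -0.09.

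**Figure D4:**
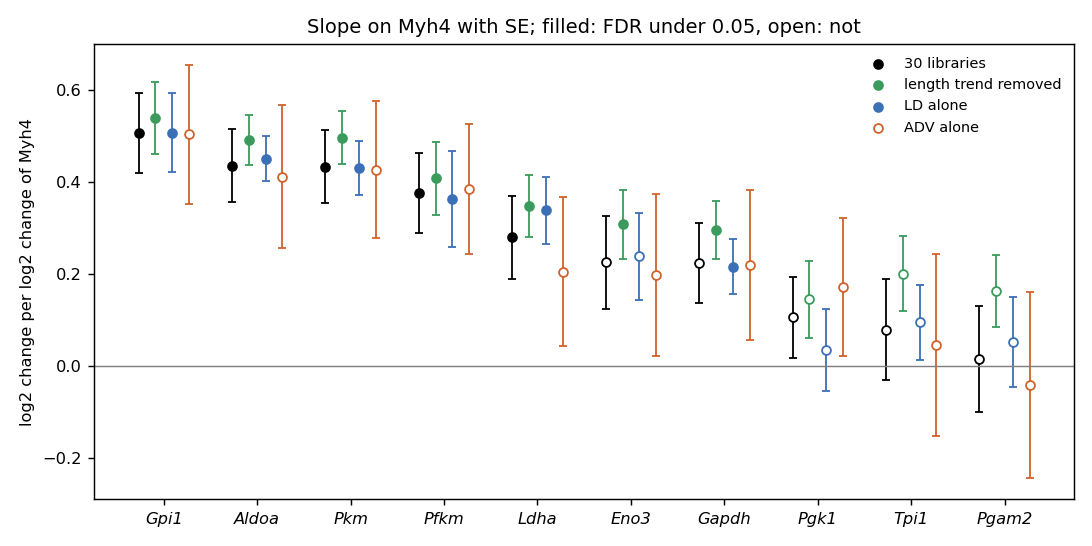
Slope of each glycolytic enzyme on Myh4 (log2 change per log2 change of Myh4, bars SE) over all 30 libraries (black), with the transcript length trend removed (green), in LD libraries alone (blue) and in ADV libraries alone (orange). Filled points passed an FDR of 0.05: 5 members in black, 7 in green, 6 in blue and none in orange.

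Other fiber and metabolic genes moved with Myh4 in the same libraries. All 10 slow fiber genes fell with it (median slope -2.62), and their summed level lay between 67.0 and 1213 FPKM among LD mice and between 345 and 2296 FPKM among ADV mice. LD 23 had the highest Myh4 and the lowest Myh7, at 3.88 FPKM against an LD median of 44.7, and ADV 24, with the second lowest Myh4 of the ADV group, had the highest Myh7, at 233 FPKM. Of the 12 other fast fiber genes 8 rose and 2 fell, the fallers being Myh1 and Myh2, the myosins of types IIx and IIa. Of 7 glycogen genes 6 rose, led by Pygm (0.69 ± 0.06) and Phka1, the large subunit of phosphorylase kinase (0.62 ± 0.09). Both estimates lay above those of all 10 enzymes, a difference that was not tested. The exception, Gys1, the glycogen synthase, was at -0.16 ± 0.10.

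Of 11 genes for NADH shuttles and pyruvate oxidation 8 fell with Myh4 and 2 rose. The 2 that rose were Gpd1 (0.46 ± 0.13) and Gpd2 (0.61 ± 0.10), the pair that forms the glycerol phosphate shuttle. Those that fell included Mdh1 (-0.96 ± 0.11) and Got1 (-0.85 ± 0.13) of the malate-aspartate shuttle and Pdha1 (-0.53 ± 0.09) of pyruvate dehydrogenase. Among transporters Mpc2, Mpc1 and Slc16a1 fell and Slc2a3 rose. Among 13 regulators Esrra, Egln3 and Pfkfb1 fell and Tigar rose. Of the 12 other isoforms tested, Ldhb and Ldhd fell and none rose.

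Ldhb, the lactate dehydrogenase subunit of heart and slow fibers, had the largest slope of the pathway, -2.08 ± 0.31 (FDR = 2.0e-05 in edgeR). It ran from 35.2 FPKM in LD 23 through 185 to 337 in LD 32, and from 138 in ADV 23 through 233 to 356 in ADV 24. LD 23, the mouse with the most Myh4, thus had the least Ldhb by a wide margin. The share of Ldha in the pair rose with Myh4 accordingly (r = 0.82, rho = 0.78, permutation p = 1.0e-05 for both, the smallest the permutations can give; r = 0.80 without ADV 31 and ADV 24), with r = 0.94 in LD and 0.67 in ADV mice, the latter 0.19 without ADV 31 and ADV 24.

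Few markers of other cell types passed the test with Myh4. No gene passed of 7 adipocyte, 6 tested Schwann cell, 7 endothelial and 5 erythroid markers. Their median slopes were 0.15, -0.57, -0.12 and -0.09 in turn, and all 6 Schwann cell slopes were negative (-0.74 to -0.32). Of 5 tested leukocyte markers 1 rose (Ptprc, slope 1.03, with a list median of 0.52). Of 6 fibroblast markers 1 fell (Lum), while the median slope of that list was positive, at 0.20, with a range of -0.68 to 0.37. The leukocyte markers summed to 40.0 to 119 FPKM and the fibroblast markers to 236 to 379 FPKM over all mice. The part of the fiber genes and of these markers in the members' slopes was not tested.

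Among themselves the members were closely correlated. Over the 30 libraries, group means removed, the median Pearson's r of the 45 pairs was 0.71, and 34 pairs exceeded 0.5, beside a median of 0.00 and 3.53% of pairs over 0.5 among all tested genes. These libraries share their normalization, and the values are descriptive. With the length trend removed the median was 0.70, and with the GC content trend removed 0.70.

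The correlations fell into a graded pattern rather than along the pathway. Gpi1, Pfkm, Aldoa and Pkm, the members nearest to Myh4, were correlated with each other at r = 0.82 to 0.92, the highest being Aldoa and Pkm. At the other end Tpi1 and Pgam2 had r = 0.89 with each other but 0.24 and 0.10 with Gpi1, and the pair of Gpi1 and Pgam2 was the lowest of the 45. Ldha, Eno3 and Gapdh lay between, with r = 0.83 to 0.89 among themselves and 0.75 to 0.85 with Aldoa and Pkm. Pgk1 was closest to Gapdh (r = 0.72), the enzyme before it in the pathway, and both may lose reads to pseudogenes. With the length trend removed, Tpi1 and Pgam2 were at r = 0.79 and Gpi1 and Pgam2 at 0.17. Without ADV 34 the median of the 45 pairs was 0.67, Tpi1 and Pgam2 were at 0.81, Aldoa and Pkm at 0.91, Aldoa and Pgam2 at 0.21 in place of 0.40, and Gpi1 and Pgam2 at -0.02.

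**Figure D5:**
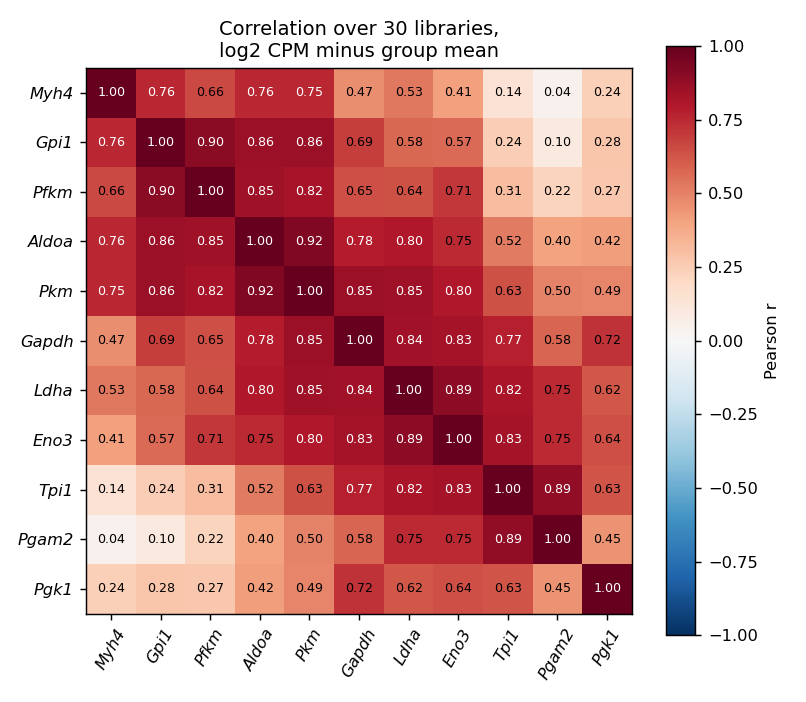
Pearson's r between the 10 glycolytic enzymes and Myh4 over 30 libraries, on log2 CPM with the group mean subtracted, on a colour scale from -1 to 1. Gpi1, Pfkm, Aldoa and Pkm form a block at 0.82 to 0.92 next to Myh4, and Tpi1 and Pgam2 form a pair at 0.89 with 0.14 and 0.04 to Myh4.

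The genes outside the members whose levels were most like theirs, by median r to the 10 members over 30 libraries, included several genes of fast muscle. Gm49759 came first (0.80), but it lies inside Pkm and may share its reads. It was followed by Zdhhc18 (0.76), Selenow (0.75), Ak1, the adenylate kinase of muscle (0.75), Hsf1 (0.74), Dusp13b (0.74) and Gpd1 (0.73). Mylpf, Ckm, the muscle creatine kinase, and Tnnc2, the fast troponin C, completed the 10 (0.73 each). Myh4 was less like the set as a whole (0.50). The 5 least like the members were Synj1, Steep1, Chuk, Opa1, which fuses inner mitochondrial membranes, and Aifm2 (-0.72 to -0.70). None of these 15 genes passed the test between LD and ADV mice (FDR 0.0692 or higher in edgeR).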

How the data were processed

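Gastrocnemius libraries of 14 LD and 16 ADV mice were compared, 1 per mouse, and every column of both tables was used. After adapter trimming (Trimmomatic), the authors aligned with STAR 2.7.10a to GRCm39, removed reads with a mapping quality under 10 and counted mates on the exons of 57186 canonical transcripts with Homer 4.11, each mate as 0.5 read (versions per the submitters' processing notes). Whether the counting used strand is not given in the sources used here. The deposited values are estimated counts, of which 14.8% were not whole, and the deposited FPKM, which equal count over exon length and library total to within 5.0e-04. No 2 libraries of a group agreed within sampling noise (lowest chi-square per degree of freedom 10.6). Depth of 18875468.5 to 28512674 read pairs makes counting error small for the members.

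Counts were rounded, and genes averaging more than 20 reads and more than 0.5 FPKM entered edgeR 4.0.16 (TMM, quasi-likelihood; R 4.3.3), with an FDR under 0.05. The 3 fits were group, group with log2 CPM of Myh4, and their interaction. FPKM shares and ratios were tested with 100000 permutations (scipy 1.17.1), and 1 of the 6 isozyme families tested is not reported here. Alternatives were other size factors, library size alone, TMM without the members, no filter, DESeq2 1.42.0, limma 3.58.1 on log2(FPKM + 0.1) and log2(FPKM + 1), summed rows, the label number as a block, GC content or transcript length trends removed (natural splines with 4 degrees of freedom), a clock score or Myh4 as covariate, a fold change over 1.3, Myh1 in place of Myh4, each group alone and leaving out each library. The fits were tested on simulated data. Promoters were read from GRCm39, the build of the tables, and pseudogenes from GENCODE transcripts.

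The genes named are the 10 members, Myh4, the called (at most 5) and 2 most abundant genes of each list, and the 10 genes most and 5 least like the members; other genes were chosen after their values were seen. The members, lists and tests were chosen with earlier results of these data known. Label numbers were checked for pairing: of 14 pairs of equal number 6 had deviations correlated above 0.1 (median r = 0.01), so they were not taken as pairs.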

Additional observations from a re-analysis of the deposited data

Results flagged for a closer look

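Among the 10 glycolytic enzymes and their other isoforms, 1 gene differed between the groups in how it moved with Myh4. The slope of Ldhb on Myh4 was -3.30 ± 0.32 (SE) in the LD libraries alone and -0.87 ± 0.24 in the ADV libraries alone, and the difference of slope in the joint fit was 2.39 (FDR = 0.0428 in edgeR), the only call among 12029 genes at an unadjusted p under 0.05 for 807 of them. With DESeq2 18 genes passed. Leaving out 1 library at a time gave differences of 1.99 to 2.68 with an FDR of 0.00446 to 0.276, under 0.05 in 11 of 30 fits. Without ADV 24 the FDR was 0.276 and without LD 23 it was 0.106. The difference itself kept its direction in every fit that was run. Ldhb was not alone in this direction. The differences of all 10 slow fiber genes were positive, from 1.07 ± 0.74 (Atp2a2) to 2.31 ± 1.03 (Myl2), and none passed. Myh2 (2.26 ± 0.66) and Myh1 (0.38 ± 0.36) were also positive, and the other fast fiber genes apart from Myh4 were negative. Mdh1 came near a call (0.82 ± 0.16, FDR = 0.0547 in edgeR).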

How the results depend on the processing

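No member passed between LD and ADV mice, or in the difference of Myh4 slope, under any alternative run. The slopes of Gpi1, Pfkm, Aldoa and Pkm stayed called under every alternative run except the label number as a block, Myh1 in place of Myh4, and ADV libraries alone, each of which called 0 members. Over all genes these settings called 168, 737 and 2 slopes in turn, beside 1620 in the main fit. With the block the slopes of Gpi1, Pfkm, Aldoa and Pkm were 0.49 ± 0.14, 0.33 ± 0.15, 0.44 ± 0.13 and 0.42 ± 0.14 (SE). The slope of Ldha also missed with library size alone, no filter, limma, or the 28 libraries with shared numbers (FDR 0.0900 to 0.121). Small group differences changed sign. With library size alone the log2 fold change was 0.0035 for Pkm and 0.0028 for Ldha, and with limma 0.0052 and 0.0046. With the GC content trend removed it was -0.036 for Pfkm, -0.059 for Aldoa, -0.057 for Gapdh and -0.019 for Eno3. With the transcript length trend removed, an alternative chosen after seeing the data, it was -0.0087 for Pfkm, -0.056 for Aldoa, -0.0051 for Tpi1, -0.063 for Gapdh and -0.019 for Eno3. With the clock score it was -0.013 for Gapdh and 0.0038 for Pkm, and with Myh4 as covariate 0.055 for Gpi1, 0.076 for Pkm and 0.047 for Ldha. The slope of Pgam2 was -0.031 with library size alone, -0.0041 with no filter, -0.024 with limma, -0.021 with the GC trend removed and -0.042 in ADV libraries alone, where Pfkm lay below Pgam2 (log2 ratio -0.030). On Myh1 the slopes were -0.18 for Gpi1, -0.11 for Pfkm, -0.21 for Aldoa, -0.092 for Tpi1, -0.091 for Gapdh, -0.093 for Pgk1, -0.12 for Pgam2, -0.13 for Eno3, -0.22 for Pkm and -0.19 for Ldha. The cause of these changes was not tested.

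The label numbers were not taken as pairs (3 of 14 LD libraries correlated best with the ADV library of their own number). Libraries of equal number correlated at r = -0.26 to 0.43, and this check cannot exclude that a number marks something shared. With the number as a block, over 28 libraries, 0 members had a slope called, beside 168 of all genes. In that setting 0 isozyme families differed (Pgam2 adjusted p = 0.0651 by permutation), the log2 fold change of Pfkm was -0.0031, and the share difference of Eno3 was 0.022 percentage points. The same libraries without the block gave -0.0036 for Pfkm and a Pgam2 slope of -0.044. The Ldhb slope difference had an FDR of 1.0 with the block, 0.332 without it and 0.0509 with DESeq2 size factors in edgeR.

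Leaving out 1 library at a time moved the log2 fold change from -0.021 to 0.022 for Pfkm, -0.013 to 0.027 for Aldoa, -0.013 to 0.022 for Gapdh, 0.020 to 0.070 for Tpi1, 0.019 to 0.063 for Eno3, -0.027 to 0.013 for Pkm and -0.030 to 0.0053 for Ldha. The Pgam2 slope ran from -0.045 to 0.064, members with a slope called from 4 to 7, and families with a share called from 0 to 1. Share differences ran from -0.017 to 0.026 percentage points for Eno3 and -6.4e-05 to 0 for Pkm.

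Over all genes, 1301 calls between the groups became 629 with no filter, 494 with the block, 616 in the same libraries unblocked, 603 with the GC trend removed, 844 with Myh4 as covariate and 0 with the clock score, and 835 without LD 28. The 675 higher and 626 lower became 775 and 466 with library size alone and 860 and 448 with limma on log2(FPKM + 0.1). The 1620 slopes called became 168 with the block, 737 on Myh1 and 2 in ADV libraries alone, and the 696 positive and 924 negative became 437 and 1124 with library size alone. For the slope difference, 1 call became 18 with DESeq2 and 26 without ADV 31.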
